A study of Mus musculus with 18 samples.

Results

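The CXC chemokines described here are the 7 genes Cxcl1, Cxcl2, Cxcl9, Cxcl10, Cxcl11, Cxcl14 and Cxcl16, taken as every probe set on the array whose annotation names one of them alone. They had 13 of the array's 45101 probe sets, and the annotation named 18193 genes in all. The cells were macrophages grown for 7 days from bone marrow of IL-10-/- mice, in medium holding CSF-1 from L cell supernatant, and every group carried that genotype. Cells were then given LPS, the bacterial cell wall product sensed by Toll-like receptor 4, at 100 ng/ml, or the same LPS with IL-10, a cytokine that restrains activated macrophages, at 10 ng/ml. RNA was taken at 10, 20 and 30 min, without CSF-1 during the treatment, and the 6 groups LPS at 10, 20 and 30 min and LPS plus IL-10 at 10, 20 and 30 min had 3 arrays each. The array numbers 1, 2 and 3 within a group are whole experiments done one after another with mice of equal age and sex, called experiments 1, 2 and 3 below. Mouse numbers per culture were not given, and no untreated cells were analysed here, so the earliest reference is 10 min of LPS.

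CXC chemokines are small secreted proteins, with 1 membrane-anchored exception among the members, that guide leukocytes through G protein-coupled receptors. In macrophages LPS drives several of their genes through NF-kB, and others follow through the interferon that the cell itself secretes. By role the members are the neutrophil attractants Cxcl1 and Cxcl2, which act on the receptor CXCR2, and the T cell attractants Cxcl9, Cxcl10 and Cxcl11, which act on CXCR3 and are known as interferon-induced. Cxcl14 is a chemokine of epithelia and other tissues, and Cxcl16 is a membrane-anchored ligand of CXCR6 that also binds oxidised lipoprotein.

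Cxcl1 and Cxcl2 are the members that rose and Cxcl10 is the CXCR3 ligand gene that was above the array median throughout, so the 250 bases before their annotated starts are shown, from RefSeq on mouse build GRCm38.p6. Capitals mark the letters matching the motifs GGGANNTNCC (NF-kB) and GAAANNGAAA (the interferon-stimulated response element, ISRE), searched on both strands, and overlapping matches run together. The stretches are chr5:90890995-90891244 on the plus strand for Cxcl1, chr5:90903649-90903898 on the plus strand for Cxcl2 and chr5:92348890-92349139 on the minus strand for Cxcl10, each written 5′ to 3′ and ending at the base before the start.
Cxcl1: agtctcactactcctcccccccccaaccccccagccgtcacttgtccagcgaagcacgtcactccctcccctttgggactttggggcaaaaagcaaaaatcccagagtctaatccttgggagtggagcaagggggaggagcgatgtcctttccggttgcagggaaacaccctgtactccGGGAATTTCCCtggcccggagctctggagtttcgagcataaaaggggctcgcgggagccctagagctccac
Cxcl2: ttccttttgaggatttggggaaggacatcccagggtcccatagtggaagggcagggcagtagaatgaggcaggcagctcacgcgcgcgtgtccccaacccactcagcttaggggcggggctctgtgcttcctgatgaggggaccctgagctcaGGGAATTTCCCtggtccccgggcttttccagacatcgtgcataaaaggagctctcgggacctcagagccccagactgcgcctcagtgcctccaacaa
Cxcl10: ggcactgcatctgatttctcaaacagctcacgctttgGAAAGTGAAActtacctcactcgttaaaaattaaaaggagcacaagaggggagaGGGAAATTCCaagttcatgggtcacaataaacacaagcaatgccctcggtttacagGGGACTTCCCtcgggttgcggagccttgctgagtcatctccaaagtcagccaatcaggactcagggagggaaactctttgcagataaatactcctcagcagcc

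Cxcl1 and Cxcl2 are neighbours on chromosome 5, and the longest run of letters their 2 windows had in common was GGGAATTTCCCTGG, 14 bases that hold the NF-kB match. It lay at -71 to -58 in Cxcl1 and at -97 to -84 in Cxcl2, counted from -1 at the last base before the start. Cxcl10 held NF-kB matches at -159 to -150 and at -103 to -94, and an ISRE match at -213 to -204. Among the 5 members with a RefSeq window, Cxcl14 on chromosome 13 had an ISRE match at -172 to -163 and a match to TTCNNNGAA, the interferon gamma activation site (GAS), at -191 to -183, and Cxcl9 had none of the 3 letter patterns. Of the 32851 mouse windows of this length, 3.33% held the NF-kB letters, 2.98% the ISRE letters and 7.02% the GAS letters. A match is a description of letters only.

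**Figure D1:**
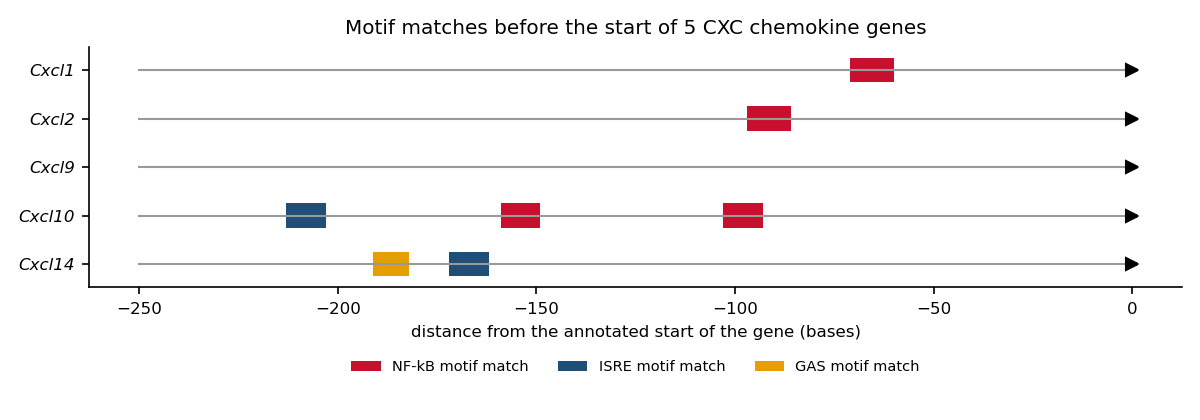
Position of motif matches in the 250 bases before the annotated start of 5 CXC chemokine genes, with distance from the start in bases on the horizontal axis and 1 line per gene. Red bars are NF-kB matches, blue bars ISRE matches and the yellow bar a GAS match, and the arrowhead is the start. The Cxcl1 and Cxcl2 lines each carry 1 red block, Cxcl10 carries 2 red blocks and 1 blue one, and Cxcl9 carries none.

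All signals below are the deposited intensities, on a linear scale that was set so that the trimmed mean of each array was 500. The array medians ran from 75.6 to 120.9. The LPS 20 min arrays of experiments 2 and 3 stood apart in their dim probe sets, with lower quartiles of 38.6 and 34.0 against 21.8 to 31.0 on the other 16 arrays, and results on the 20 min LPS group are given without them where a call depends on it. All 8 macrophage markers looked up, from Csf1r to Mertk, were at or above the array median on all 18 arrays. Granulocyte markers were present too, with 8 measured genes summing to 5806 to 14209 per array and overlapping between all times and treatments. In whole cultures, fewer cells of a type and less RNA per cell cannot be told apart. Nothing says that the arrays of an experiment came from separate mice, so p-values measure the spread between these experiments.

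Of the 13 member probe sets, 11 passed the filter for testing, which asked for 3 or more arrays with a signal no lower than the array median, and 7 were there on all 18 arrays. These 7 were the 3 of Cxcl1, both of Cxcl16 and the single ones of Cxcl2 and Cxcl10. The probe set of Cxcl9 that passed (1418652_at) did so on 4 arrays, that of Cxcl11 (1419697_at) on 9, and those of Cxcl14 on 15 and 14. The second probe sets of Cxcl9 (1456907_at, 4.8 to 130.5) and Cxcl11 (1419698_at, 6.3 to 87.9) were not tested. Differences are given on the log2(signal + 16) scale from limma's linear model over all arrays, with two-sided p-values adjusted by Benjamini and Hochberg's method across the 27110 tested probe sets and called below 0.05. A second fit holds the experiment as a block, which removes the level that an experiment's arrays share, and its values stand beside a result where they change the call. Its p-values measure how far differences vary between experiments, and those of the fit without a block hold the spread of the levels too.

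Cxcl2 and Cxcl1 rose within these 30 min with and without IL-10, and no call for any other member was made in either fit. Cxcl2 rose 5.52-fold from 10 to 30 min of LPS and 5.02-fold with IL-10 present. Cxcl1, at its representative probe set, rose 9.74-fold with LPS and 3.86-fold with IL-10 present, and within a single treatment it was called only with the experiment as a block. From 10 to 30 min of LPS, 1 of the 11 member probe sets was called higher and 4 were with the block, where 0.0184% and 0.107% of all probe sets were. With LPS plus IL-10 the counts were again 1 and 4, against 0.0443% and 0.195% of all probe sets.

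Cxcl2 (1449984_at) encodes MIP-2, the neutrophil attractant of stimulated macrophages. With LPS alone its signal was 4970, 3295 and 2620 at 10 min in experiments 1, 2 and 3, then 10797, 12138 and 11086 at 20 min, and 17488, 23138 and 18047 at 30 min. With IL-10 added it was 5070, 2836 and 2552 at 10 min, 9113, 9410 and 6646 at 20 min, and 18800, 20602 and 12154 at 30 min. Every 10 min array lay below every 20 min array, and every 20 min array below every 30 min array, whatever the treatment. Of the 27110 probe sets tested, 3 (0.0111%) had this complete order over the 18 arrays, the others being Ier3 and the phosphatase gene Dusp1, names read after the order was seen.

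The change of Cxcl2 from 10 to 30 min was 2.46 (SE 0.27, limma adjusted p = 0.00243) for LPS alone and 2.33 (SE 0.27, limma adjusted p = 0.000881) when IL-10 was added. The LPS change was 1.81, 2.81 and 2.78 in experiments 1, 2 and 3, so all of them went up and experiment 1, which began highest, went up least. Experiment 2 carries weight in the fit without a block, since leaving it out gave an adjusted p of 1.00 for both changes in limma. Leaving out experiment 3 gave 0.0905 for the LPS change, and a fit on only the arrays compared gave 0.128 and 0.0928. With the block, leaving out any experiment kept both calls, and over all 20 alternatives the adjusted p ran from 1.15e-06 to 1.00 for the LPS change and from 7.38e-07 to 1.00 with IL-10.

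The rise of Cxcl2 was already under way at 20 min. From 10 to 20 min it was 1.69 (SE 0.27) for LPS alone and 1.31 (SE 0.27) when IL-10 was added, called with the block (limma adjusted p = 0.00102 and 0.00937) and not without it (0.313 and 0.684). In this step no member was called without the block in either treatment, where 4 and 1 member probe sets had an unadjusted p below 0.05, as did 3.32 and 1.52% of all. With the block, 2 and 1 were called, against 0.0148% and 0.0332% of all probe sets. The blocked LPS call was lost without experiment 2 (adjusted p = 0.144) and without both LPS 20 min arrays that stood apart (0.125), and the blocked call with IL-10 was lost without experiment 2 or 3. In signal, 20 min had reached 46.6, 44.6 and 54.9% of the way from the 10 to the 30 min value with LPS, and 29.4, 37.0 and 42.6% with LPS plus IL-10.

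Cxcl1 encodes KC, the other CXCR2 ligand among the members. Its brightest tested probe set by mean log2 signal (1457644_s_at) read 415, 425.7 and 259.9 at 10 min of LPS, 917.4, 2195 and 964.9 at 20 min, and 2891, 7299 and 2264 at 30 min. With IL-10 it read 511.4, 668.8 and 413.5 at 10 min, 692.8, 1367 and 454.4 at 20 min, and 2447, 4386 and 807.9 at 30 min. The LPS arrays rose without overlap from each time to the next, and all 3 Cxcl1 probe sets and Cxcl2 were among the 7 probe sets of the array (0.0258%) that did so. With IL-10 the times overlapped, since experiment 3 at 20 min was no higher than experiments 1 and 2 at 10 min. Of the 19 probe sets (0.0701%) fully ordered by time in the LPS plus IL-10 arrays, Cxcl2 was the single member.

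From 10 to 30 min of LPS the Cxcl1 change was 3.28 (SE 0.56), or 2.75, 4.05 and 3.05 in experiments 1, 2 and 3. It missed the threshold without the block (limma adjusted p = 0.0808) and passed with it (3.27e-06), also when any 1 experiment was left out. The probe set 1419209_at gave 3.01 (blocked limma adjusted p = 3.27e-06) and 1441855_x_at gave 1.43 (0.000795), so the 3 probe sets differed in the size of the change and shared its direction. With IL-10 the change was 1.95 (SE 0.56, limma adjusted p = 1.00, with the block 0.00109), and experiment 3 rose by 0.94 against 2.22 and 2.68 in experiments 1 and 2. The blocked call of this probe set was lost without experiment 1 or 2 (adjusted p = 0.115 without experiment 2), while 1419209_at (2.18, blocked adjusted p = 9.15e-05) kept its call.

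At its representative probe set (1457644_s_at), Cxcl1 reached a smaller share of its 10 to 30 min rise by 20 min than Cxcl2 in every experiment. At 20 min it had covered 20.3, 25.7 and 35.2% of its way in signal for LPS alone and 9.37, 18.8 and 10.4% when IL-10 was added, less than Cxcl2 in 6 of 6 courses. The order did not hold at 1441855_x_at in experiment 3 with LPS. There the signal was 462.2, 886.5 and 1177.5 at 10, 20 and 30 min, a larger share by 20 min than the 54.9% of Cxcl2. Such a share also depends on the size of the whole fold rise, so it does not show a later start. On the log2 scale the 10 to 20 min change with LPS was 1.11, 2.32 and 1.83 for Cxcl1 in experiments 1, 2 and 3. For Cxcl2 it was 1.12, 1.88 and 2.07. With IL-10 added Cxcl1 changed less than Cxcl2 in each experiment, by 0.43, 1.01 and 0.13 against 0.84, 1.72 and 1.38. From 10 to 20 min of LPS the change at 1457644_s_at, 1.76 (SE 0.56), was called with the block only (limma adjusted p = 0.0345). That call was lost without experiment 1 or 2, and without either LPS 20 min array that stood apart. From 20 to 30 min of LPS no member was called without the block (4 had an unadjusted p below 0.05, as did 4.81% of all). With the block 1 was called in limma, Cxcl1 1419209_at at 1.59 (adjusted p = 0.0253), where 0.0148% of all probe sets were called. How this call fared without the LPS 20 min arrays that stood apart is not shown here. From 20 to 30 min with IL-10 no member was called in either limma fit, with 4 and 5 unadjusted p-values below 0.05 (1.91 and 7.16% of all probe sets) and 0 and 0.0184% of all probe sets called. There Cxcl1 changed by 1.43 and Cxcl2 by 1.01 (blocked adjusted p = 0.0854 and 0.0954).

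Taken over both treatments, 30 against 10 min gave 3 called member probe sets and 4 with the block, against 0.0553% and 0.35% of all probe sets. Cxcl2 was 2.40 higher (SE 0.19, limma adjusted p = 8.18e-06), and Cxcl1 was 2.62 higher (SE 0.39, limma adjusted p = 0.0126) at 1457644_s_at and 2.60 higher at 1419209_at (0.00544). The Cxcl1 call was lost without experiment 1 (0.783) or 2 (0.215) and the Cxcl2 call without experiment 2 (0.0791) in the fit without a block. With the block neither was lost.

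Cxcl1 (1457644_s_at) was highest in experiment 2 in each of the 6 groups, at 1.62 to 5.43 times the level of experiment 3, while 1441855_x_at was highest in experiment 3 with LPS plus IL-10 at 10 min. The summed signal of the 8 granulocyte markers was also highest in experiment 2, at 11994 to 14209 against 5806 to 9214 in experiments 1 and 3. The brightest in that sum were S100a8 (2757 to 7701 over all arrays) and S100a9 (1303 to 4622). Mpo was instead highest in experiment 1, at 293.2 to 423.8 against 130.9 to 282.7. The other markers of the list overlapped between experiment 1 and the others. All 8 markers were at or above the array median throughout experiment 1 and 7 of 8 in experiments 2 and 3. Their part in the Cxcl1 level was not tested.

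**Figure D2:**
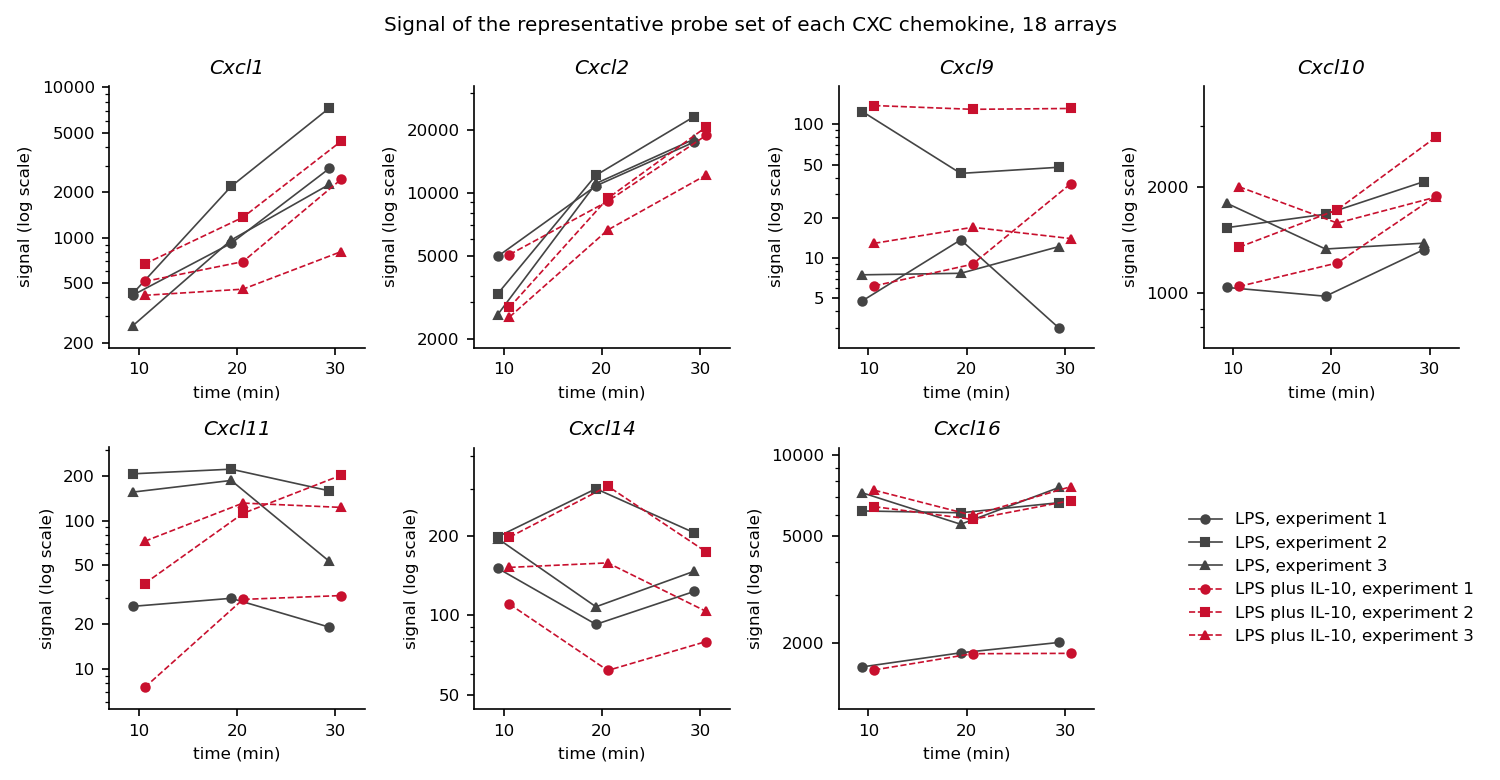
Signal on a log scale against time in min for the representative probe set of each of the 7 genes, with black solid lines for LPS, red dashed lines for LPS plus IL-10, and circles, squares and triangles for experiments 1, 2 and 3. Points are single arrays, moved slightly sideways by treatment. Cxcl2 climbs from 2552 to 5070 at 10 min to 12154 to 23138 at 30 min, and Cxcl16 shows 2 levels set by experiment at every time.

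Ordered by the group means, Cxcl2 went from 3486 ± 1379 (SD, n = 3) with LPS plus IL-10 at 10 min and 3628 ± 1210 with LPS at 10 min to 8389 ± 1517 and 11340.5 ± 706 at 20 min and 17185 ± 4450 and 19557 ± 3113 at 30 min. Within a time the treatments overlapped at 10 and at 30 min. At 20 min every LPS plus IL-10 array was below every LPS array, which was so for 3.01% of all probe sets. Cxcl1 had the order LPS at 10 min (367 ± 93), LPS plus IL-10 at 10 min (531 ± 129), then LPS plus IL-10 (838 ± 473) and LPS (1359 ± 725) at 20 min, and LPS plus IL-10 (2547 ± 1791) and LPS (4151 ± 2744) at 30 min. Each neighbouring pair in that order overlapped.

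IL-10 changed no member past the threshold at 10, 20 or 30 min or averaged over the times, in limma without or with the block. At 10 min 0% of all probe sets were called in either fit, at 20 min 0.00738% and, with the block, 0.0184% were called higher, at 30 min 0.0111% and 0.0443%, and over the times 0.0111% and 0.0332%, and none was called lower. None of the 11 member probe sets had an unadjusted p below 0.05 in these comparisons, while 1, 3, 4 and 5 did in the blocked fit, where 3.58, 7.81, 2.81 and 4.21% of all probe sets did. At 30 min the IL-10 difference had the same sign in all 3 experiments for 3 member probe sets on the higher side (Cxcl9, Cxcl10 and Cxcl11) and 4 on the lower side (2 of Cxcl1 and both of Cxcl14), where 12.7% and 13.9% of all probe sets did so.

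Cxcl1 (1457644_s_at) was lower with IL-10 at 20 and 30 min in 6 of 6 pairs of arrays of the same experiment and higher at 10 min in 3 of 3. The mean difference was 0.52 at 10 min, -0.71 at 20 min and -0.81 at 30 min (SE 0.56 each, limma adjusted p = 1.00 each; blocked SE 0.27, adjusted p 1.00, 0.610 and 1.00). Over the 20 alternatives the 20 min difference ran from -0.90 to -0.27. At 30 min the pairs gave -0.24, -0.73 and -1.47, experiment 3 having the largest difference. Before adjustment for the number of probe sets, the 95% interval at 30 min ran from -1.99 to 0.37 without the block. With the block it ran from -1.37 to -0.25. The probe sets of the gene did not all share these signs. 1419209_at was slightly higher with IL-10 in experiment 1 at both 20 and 30 min (0.04 and 0.05) and lower in the other 4 pairs, and 1441855_x_at was lower in 6 of 6. At 10 min 1419209_at was lower with IL-10 in experiment 2 and 1441855_x_at in experiment 1.

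Cxcl2 was lower with IL-10 in 7 of 9 pairs. The difference was -0.07 at 10 min, -0.45 at 20 min and -0.21 at 30 min (SE 0.27 each), and at 20 min the pairs gave -0.24, -0.37 and -0.74. The 20 min difference was not called (limma adjusted p = 1.00, with the block 0.621), and 16.1% of all probe sets were lower in 3 of 3 experiments there. Over the 20 alternatives the 20 min difference of Cxcl2 ran from -0.55 to -0.13. At 30 min the unblocked 95% interval, -0.79 to 0.37, and the blocked one, -0.62 to 0.19, leave room for a difference of either sign.

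The change of the IL-10 difference itself, from 10 to 20 min and from 10 to 30 min, was called for no member in either limma fit. Of all probe sets 0% and, with the block, 0.00738% were called higher for the first change and 0.00369% and 0.0184% for the second. Unadjusted p-values below 0.05 were 0 and, with the block, 1 for the first and 0 and 3 for the second, the first being Cxcl1 and the others 2 of its probe sets and Cxcl11. With the block 6.36 and 2.45% of all probe sets had one.

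**Figure D3:**
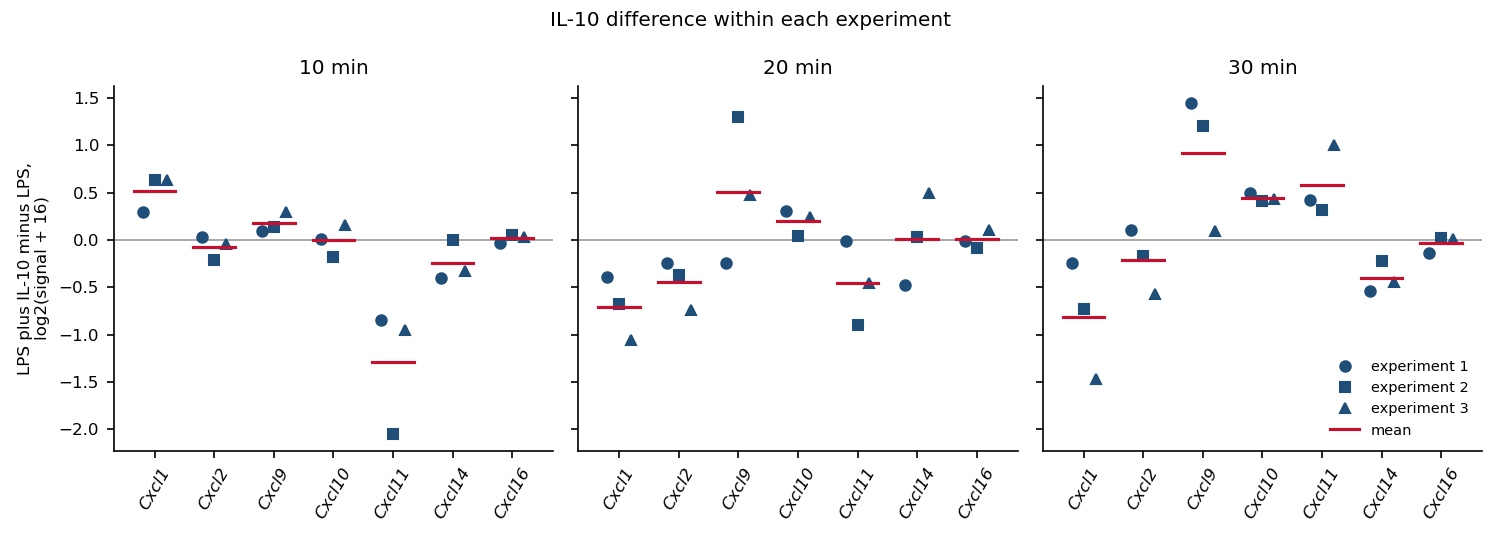
Difference of log2(signal + 16) between LPS plus IL-10 and LPS within each experiment, for 7 genes at 10, 20 and 30 min, with circles, squares and triangles for experiments 1, 2 and 3 and red lines for their mean. At 30 min the 3 Cxcl10 points lie at 0.42 to 0.50, the 3 Cxcl1 points at -1.47 to -0.24, and Cxcl16 stays close to 0.

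Cxcl10 (1418930_at), known as IP-10, was above the array median on all 18 arrays, and it was higher with IL-10 in 8 of 9 pairs. At 30 min of LPS it read 1331, 2077 and 1388 in experiments 1, 2 and 3, and with IL-10 it read 1885, 2777 and 1877. Every experiment was higher with IL-10 by nearly the same log2 amount, 0.50, 0.42 and 0.43, although the groups overlapped because experiment 2 was high in both. The mean difference of 0.45 (SE 0.28, blocked SE 0.17) was not called (limma adjusted p = 1.00 in both fits, unadjusted p = 0.0183 with the block).

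At the earlier times Cxcl10 read 1038, 1537 and 1800 at 10 min and 980.4, 1679 and 1336 at 20 min of LPS, and 1045, 1352 and 2009 and then 1220, 1728 and 1584 with IL-10. With LPS alone the times overlapped. With IL-10 the 10 min arrays overlapped the later ones, and every 30 min array was above every 20 min array, as for 1.81% of all probe sets. From 10 to 30 min it changed by 0.14 for LPS alone and by 0.59 when IL-10 was added (SE 0.28 each, limma adjusted p = 1.00 each, with the block 1.00 and 0.367). With IL-10 experiments 1 and 2 gave 0.84 and 1.03 and experiment 3 gave -0.10. Without experiment 3 the blocked change with IL-10 was 0.94 and called (adjusted p = 0.00134), as was the change over both treatments, 0.66 (0.000792). Over the 20 alternatives the adjusted p of the change with IL-10 ran from 0.00134 to 1.00.

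Cxcl11 (1419697_at), or I-TAC, was dim and split by experiment. RefSeq annotates the mouse gene as a transcribed pseudogene. With LPS it read 26.4, 206.5 and 155.5 at 10 min, 29.9, 221.9 and 186.3 at 20 min, and 19.1, 158.5 and 53.0 at 30 min. With IL-10 it read 7.5, 37.6 and 72.5, then 29.4, 111.7 and 131.1, then 31.2, 202.1 and 122.6. Experiment 1 lay below both others on all 18 arrays, at most 31.2. In every experiment the signal of this probe set was higher at 30 than at 10 min with IL-10 and lower with LPS alone. Neither change was called (1.23 and -0.65, SE 0.83, limma adjusted p = 1.00 each, with the block 0.397 and 1.00).

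Cxcl9 (1418652_at), or MIG, read 3.0 to 36.0 in experiments 1 and 3 and 43.0 to 138.3 in experiment 2, which was above both others on all its arrays. It reached the array median on 4 arrays, all of experiment 2, and without detection calls such signals may be background. Its IL-10 difference was 0.18, 0.51 and 0.92 at 10, 20 and 30 min (SE 0.94 each, not called in limma, adjusted p = 1.00 each), with 8 of 9 pairs higher. The untested 1456907_at had means of 28.7, 86.0 and 25.4 with LPS at these times. With IL-10 they were 29.0, 43.1 and 38.1, so it did not share the direction at 20 min.

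Cxcl14 was measured by probe sets that correlated at 0.71 over the 18 arrays. 1418456_a_at read 61.9 to 308.3, with its highest arrays at 20 min in experiment 2 under both treatments. 1418457_at separated the experiments completely, at 27.5 to 123.7 in experiment 1, 143.1 to 195.4 in experiment 3 and 223.6 to 306.3 in experiment 2. No time or IL-10 difference of either was called in either fit.

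Cxcl16 was divided by experiment, and no difference by time or treatment was called in either fit. Its probe set 1418718_at read 1582 to 2003 on the 6 arrays of experiment 1 and 5531 to 7640 on the other 12, and 1449195_s_at read 1358 to 1617 and 4175 to 5378. The probe sets correlated at 0.994 over the 18 arrays, and experiment 1 was lower by 1.88 and by 1.70 on the log2 scale. From 10 to 30 min the change was 0.16 for LPS alone and 0.11 when IL-10 was added (blocked SE 0.11, not called), and the IL-10 difference at 30 min was -0.03, with a blocked 95% interval of -0.27 to 0.20.

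Experiment 1 was below both others without overlap for 4 of the 11 tested member probe sets, both of Cxcl16, Cxcl11 1419697_at and Cxcl14 1418457_at, and for 4.77% of all probe sets. Experiment 2 was above both others for 2, Cxcl9 and Cxcl14 1418457_at, and for 2.03% of all. Cxcl9 passed the filter on 4 arrays, all of experiment 2, and Cxcl11 on 9, none of them of experiment 1. The filter thus favoured these separations, and the counts are a description only. Other genes were also divided by experiment, their names read after the split was seen. The macrophage genes Adgre1 (9900 to 11038 in experiment 1, 17609 to 26042 in the others) and Mertk (360.3 to 549.7 and 741.7 to 1183) and the stromal genes Acta2 (2440 to 3587 and 4076 to 6903) and Postn (115.4 to 167.1 and 206.8 to 354.4) were lowest in experiment 1. The other 6 macrophage markers overlapped between experiment 1 and the others, as Cd68 did (18328 to 25897 and 18395 to 26909), and so did the sum of all 8, at 106046 to 138279 in experiment 1, 122255 to 158178 in experiment 2 and 119727 to 189889 in experiment 3. All stromal markers but Acta2 and Postn overlapped too, as Col1a1 did (335.7 to 612.2 and 359.5 to 1391). The 8 stromal markers summed to 4474 to 5459 in experiment 1, 6858 to 8609 in experiment 2 and 7700 to 9794 in experiment 3. Acta2 was the brightest in that sum, and Lum was below the array median on every array. The part of either cell type's genes in the Cxcl16 difference was not tested.

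The members differed in what carries their spread. Time took 89.9% of the sum of squares of Cxcl2, the highest share of the 27110 probe sets, and 63.9 to 74.8% of that of the Cxcl1 probe sets, which ranked 8, 18 and 29. The median over all probe sets was 7.00%. The experiment took 97.8 and 98.1% for the Cxcl16 probe sets, 81.5% for Cxcl9, 70.5% for Cxcl11, 65.6 and 81.2% for Cxcl14 and 40.3% for Cxcl10, against a median of 37.9%. Treatment took 7.95% for Cxcl10 against a median of 1.36%. These shares describe the 18 arrays and are not tests, and Cxcl9 and Cxcl11 passed the filter through arrays of only part of the experiments.

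**Figure D4:**
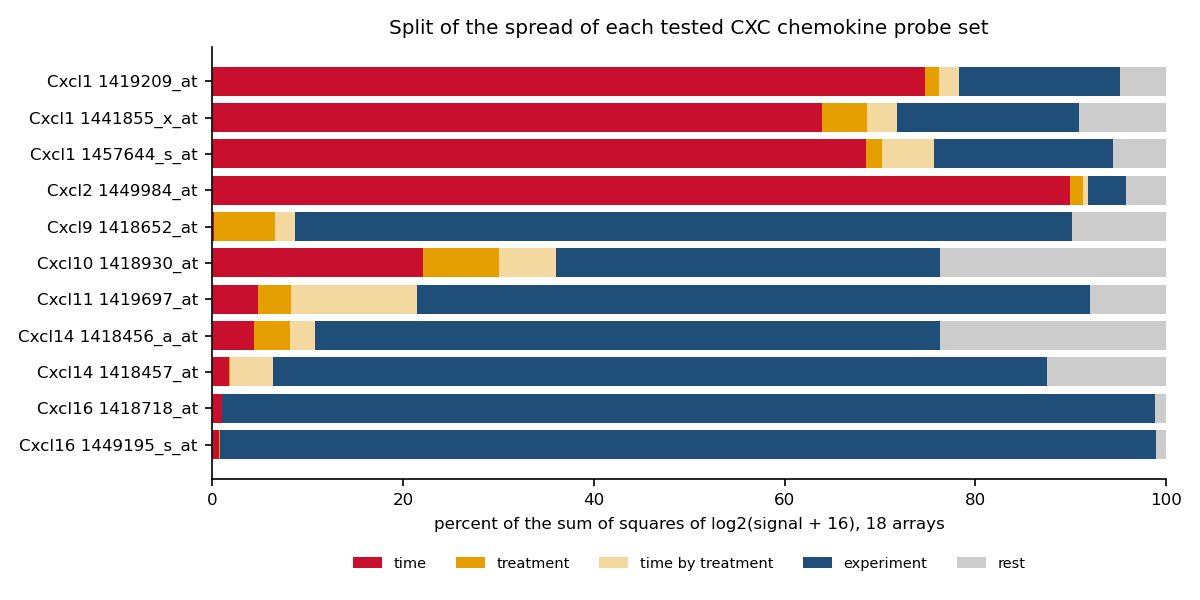
Split of the sum of squares of log2(signal + 16) over the 18 arrays for the 11 tested probe sets, in percent, as stacked bars for time, treatment, time by treatment, experiment and rest. Red (time) fills most of the Cxcl1 and Cxcl2 bars and blue (experiment) most of the others except Cxcl10, where no part reaches 50%.

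Over the 18 arrays the genes most like Cxcl2 among 12526 others were Dusp1 (Pearson r = 0.98), which encodes a MAP kinase phosphatase, Cxcl1 (0.88), Ier3 (0.87), Ppp1r15a (0.85) and the CC chemokine gene Ccl3 (0.84). Those most like Cxcl1 were Traf1 (0.96), a TNF receptor adaptor, the prostaglandin synthase gene Ptgs2 (0.89), Cxcl2 (0.88), Dusp1 (0.88) and Ccl3 (0.85). Those most like Cxcl10 were Cd69 (0.83), Tbc1d7 (0.83), Rdh14 (0.80), Mtmr14 (0.80) and Fbxo6 (0.80), and it stood at 0.66 with both Cxcl11 and Cxcl16 and at 0.42 with Cxcl1. The arrays share times and experiments, so these values describe likeness only.

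Other genes of the chemokine pathway were taken from fixed lists, each gene by its representative probe set. Of 6 other CXC ligands tested, none was called without the block in 30 against 10 min over both treatments. With the block Cxcl3, another CXCR2 ligand, was called higher (1.04, SE 0.19, limma adjusted p = 0.0120). The platelet factor gene Pf4 (-0.06), Ppbp (-0.04) and Cxcl12 (0.24) were not called. The list's median change was -0.05 against -0.03 over all genes. Of 8 receptor genes 3 were tested, Cxcr4 (0.06), Cxcr3 (0.05) and the scavenging receptor gene Ackr1 (0.02), and none was called in any comparison. Of the chemokine-processing enzymes 5 were tested and none was called. Adam10 and Adam17, which shed CXCL16 from the membrane, changed by 0.02 and -0.03, and the elastase gene Mmp12 by 0.05.

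All 10 tested regulators of NF-kB were higher at 30 than at 10 min with both treatments, by a median of 0.30 for LPS alone and 0.24 when IL-10 was added, where the median over all genes was -0.02 and -0.04. Called with the block were Nfkbiz, the co-activator IkB zeta (1.06 and 1.17, limma adjusted p = 0.00252 and 0.000497), and Tnfaip3, the feedback inhibitor A20 (0.88 and 0.68, adjusted p = 0.00408 and 0.0270). Nfkbia, the gene of IkB alpha, gave 0.03 and 0.10 at its brightest probe set, which was not called. Over both treatments it gave 0.52 and 0.51 at dimmer ones (blocked limma adjusted p = 0.00337 and 0.00701), so its probe sets disagreed. Rela (0.12 and 0.02) and Nfkbib were not called.

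Of 12 tested genes of the interferon axis, 9 were higher at 30 than at 10 min of LPS and 7 with IL-10 added, by medians of 0.09 and 0.03. Irf1, an interferon-induced transcription factor, was the single gene of all these lists called for IL-10. It was 1.03 higher with IL-10 at 30 min (SE 0.26, blocked SE 0.15, limma adjusted p = 1.00, with the block 0.00801), in 3 of 3 experiments. From 10 to 30 min it rose by 1.06 with LPS plus IL-10 (blocked adjusted p = 0.00222) and gave 0.12 with LPS. Irf7 and Irf8, the brightest of the list, were not called, and Ifnb1, the gene of interferon beta, had a mean signal of 85.3 and was not called (it is named outside the rule, its value known). Among 8 mRNA decay and stability factors Zfp36, tristetraprolin, was called with the block from 10 to 30 min (1.13 with LPS and 1.54 with IL-10, limma adjusted p = 0.000242 and 2.40e-06) and from 10 to 20 min with IL-10 (0.82, 0.0224). Zfp36l2, Hnrnpd and Zfp36l1 were not called.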

How the data were processed

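Single-colour Affymetrix arrays were read from the series' value table, 18 columns, matched to the samples by label. The authors deposited intensities on a linear scale, and GCOS 1.4 stands in the submitters' processing notes. How GCOS computed a signal is not stated there or in the labels, and the trimmed mean (2% at each end) was 500 on every array. Scaling of this kind hides a change in total RNA. No depth exists for arrays, and 3 arrays per group limit the precision. Of 45037 probe sets that are no controls, 34945 carried 1 symbol in the platform annotation, 932 several and 9160 none, and only those with 1 were named.

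Signals were turned into log2(signal + 16), which understates changes of dim probe sets. limma 3.58.1 in R 4.3.3 took all 18 arrays (lmFit, 1 mean for each group, and eBayes with a trend on intensity), leaving 12 residual degrees of freedom, or 10 with the experiment as a block, for 13 comparisons. The fit without a block is the one first chosen. The labels make each number a whole experiment, and deviations from group means correlated at 0.201 to 0.642 for arrays of the same number (45 pairs) and at -0.471 to 0.0651 for others (90 pairs), so the numbers pair the samples. No 2 arrays were copies: the closest of 153 pairs had 104 equal probe sets. The fit was tested on simulated data.

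Every member probe set was described. From the gene lists, called genes and up to 3 of the brightest uncalled ones were named, and likeness is the 5 highest Pearson correlations per member. The members, lists and tests were chosen with earlier results of these data known. Alternatives were pseudocounts of 1 and 64, quantile normalisation, a filter at the 75th percentile or none, the block, only the arrays compared, no intensity trend, and leaving out each experiment or the LPS 20 min arrays of experiments 2 and 3, without and with the block; leaving out both of these arrays, and leaving either out with the block, was added after the data were seen.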

Additional observations from a re-analysis of the deposited data

Results flagged for a closer look

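The IL-10 difference of Cxcl1 (1457644_s_at) had opposite signs at early and later times in all 3 experiments. It went from 0.52 at 10 min to -0.71 at 20 min, a change of -1.23 (limma adjusted p = 1.00, with the block 0.550), and to -0.81 at 30 min, a change of -1.33 (adjusted p = 1.00 in both fits, unadjusted p = 0.00242 with the block). Such a turn in 3 of 3 experiments was seen in 4.81% of all probe sets from 10 to 20 min and in 2.69% from 10 to 30 min, and the other Cxcl1 probe sets did not show it in every experiment.

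The IL-10 difference of Cxcl11 (1419697_at) turned the other way, from -1.29 at 10 min and -0.46 at 20 min to 0.59 at 30 min in all 3 experiments. The change from 10 to 30 min was 1.87 (limma adjusted p = 1.00 in both fits, unadjusted p = 0.00205 with the block). The change from 20 to 30 min was 1.04 and was not tested, and 4.62% of all probe sets turned so. Put as time courses, Cxcl11 changed by -0.65 with LPS and by 1.23 with LPS plus IL-10 from 10 to 30 min, the same difference of 1.87, and 2.32% of all probe sets had opposite courses in 3 of 3 experiments. The highest signal of 1419697_at was 221.9 and it was at or above the array median on 9 arrays. The second, untested probe set of Cxcl11 (1419698_at) did not show this turn in every experiment. At 10 min it read 34.2, 26.6 and 6.3 with LPS and 22.3, 32 and 52.6 with IL-10 in experiments 1, 2 and 3.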

How the results depend on the processing

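Counts are of member probe sets called. With the replicate block they rose from 0 to 2 for 20 against 10 min of LPS, from 1 to 4 for 30 against 10 min and from 0 to 1 for 30 against 20 min, and with IL-10 from 0 to 1 for 20 against 10 min and from 1 to 4 for 30 against 10 min. With only the arrays compared, both 30 against 10 min counts were 0. With the block and both LPS 20 min arrays of experiments 2 and 3 left out, 30 against 10 min gave 4 in either treatment and 20 against 10 min with IL-10 gave 1. Leaving out an experiment or 1 of those arrays, without or with the block, gave with LPS 0 to 2 (20 against 10 min), 0 to 4 (30 against 10) and 0 to 2 (30 against 20). With IL-10 the ranges were 0 to 1, 0 to 5 and 0 to 1, and over both treatments 0 to 5. The comparisons of IL-10 with none gave 0 under all 20 alternatives, and the block changed no other count by over 1.5 times. No called difference changed sign. Of 87 uncalled gene differences 29 changed sign under at least 1 alternative, 4 of them among the 35 of size 0.4 or more. The cause of these shifts was not tested. With 3 arrays per group and no detection calls, Cxcl9, Cxcl11 and Cxcl14 are limited most, being near or below the array median.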

Other observations

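The CC chemokines, the related family that attracts monocytes, moved over the same minutes. Of 8 tested genes 6 were higher at 30 than at 10 min with each treatment, by a median of 0.42 for LPS alone and 0.76 when IL-10 was added, where the median over all genes was -0.02 and -0.04. With the experiment as a block limma called Ccl3 in both (1.05 and 1.45, adjusted p = 0.0320 and 0.000694), and Ccl4 (1.48, 0.00401), Ccl7 (1.70, 0.00401) and Ccl2 (1.02, 0.0293) with IL-10 added. None was called without the block. Ccl9, Ccl6 and Ccl5 were not called, with 30 against 10 min values over both treatments of -0.06, 0.04 and -0.21. At 30 min 7 of the 8 were higher with IL-10, and none was called in either fit. The median over all 8 was 0.44, where the median over all genes was -0.004. The CXC members were 3 higher and 4 lower there, with a median of -0.03 and none called. A difference between the families was not tested.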
